A study of Mus musculus with 32 samples.

Results

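The genes described here are 7 genes of cholesterol synthesis and its feedback control: Hmgcs1, Idi1, Fdps, Sqle, Lss and Cyp51, which encode enzymes of the pathway, and Insig1, which encodes a sterol-regulated brake on it. They were picked by gene name from a count table of 54532 genes, by their known role and not by a threshold on their values, and each name matched 1 gene. RNA was sequenced from the kidneys of 32 wild-type C57BL/6 mice in a time course of cisplatin-induced acute kidney injury (AKI). Cisplatin is a platinum drug whose dose in patients is limited by damage to the kidney tubules. Male and female mice, acquired at 6 to 8 weeks of age, received 1 intraperitoneal injection of cisplatin at 20 mg/kg, and the groups, of 4 mice each, were Day 0, Day 2, Day 3 and Day 5 of each sex. The study describes the Day 0 mice as healthy. In the labels the treatment entry of the Day 0 males is empty, that of the Day 0 females names cisplatin, and no mice given saline alone and followed to the later days were analysed here. The tissue was whole kidney, so fewer cells of a type and less RNA per cell cannot be told apart.

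Cells make cholesterol from acetyl-CoA. The early enzymes, among them HMG-CoA synthase (Hmgcs1), lead to mevalonate. Mevalonate is then turned into isoprenoid units (Mvk, Pmvk, Mvd, Idi1) and into farnesyl diphosphate (Fdps). Squalene synthase (Fdft1), squalene epoxidase (Sqle) and lanosterol synthase (Lss) then build the first sterol, and lanosterol demethylase (Cyp51) begins the trimming that ends in cholesterol. The genes share a controller, the transcription factor SREBP-2 (Srebf2). When membranes are rich in sterols, INSIG proteins hold the SREBP precursor and its escort SCAP in the endoplasmic reticulum. When sterols are scarce, SREBP-2 is released and raises the enzymes, the uptake of cholesterol, and Insig1 itself. SREBP binds sterol regulatory elements in promoters, usually beside sites for NF-Y (a CCAAT box) or Sp1 (a GC box). The proximal tubule, the nephron segment that takes up cisplatin, makes up much of the kidney cortex.

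The promoters of the 4 genes with a called change between groups and a sequence in the table used are shown, so that the motifs searched for can be seen in their letters. Each is the 250 bases before the gene's start in RefSeq (GRCm38.p6), read 5′ to 3′ on the gene's strand. Capitals mark matches to TCACNCCAC, a sterol regulatory element-like motif, to CCAAT or its reverse complement ATTGG, and to CACGTG, an E-box.
Hmgcs1, chr13:119690101-119690350, plus strand: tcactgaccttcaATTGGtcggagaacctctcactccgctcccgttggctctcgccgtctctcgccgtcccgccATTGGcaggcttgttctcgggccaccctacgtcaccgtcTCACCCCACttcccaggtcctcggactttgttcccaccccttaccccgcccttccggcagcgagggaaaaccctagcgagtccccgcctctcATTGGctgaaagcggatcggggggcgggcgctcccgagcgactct
Idi1, chr13:8885356-8885605, plus strand: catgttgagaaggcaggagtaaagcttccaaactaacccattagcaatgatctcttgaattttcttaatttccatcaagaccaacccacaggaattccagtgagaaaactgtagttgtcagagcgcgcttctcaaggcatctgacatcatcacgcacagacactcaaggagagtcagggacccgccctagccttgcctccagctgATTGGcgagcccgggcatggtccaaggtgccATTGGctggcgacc
Cyp51, chr5:4104698-4104947, minus strand: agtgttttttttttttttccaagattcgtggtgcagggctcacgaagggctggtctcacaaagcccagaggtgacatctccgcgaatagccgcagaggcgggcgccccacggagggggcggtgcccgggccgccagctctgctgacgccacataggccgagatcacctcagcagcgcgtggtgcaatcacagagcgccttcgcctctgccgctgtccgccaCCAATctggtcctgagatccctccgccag
Insig1, chr5:28071162-28071411, plus strand: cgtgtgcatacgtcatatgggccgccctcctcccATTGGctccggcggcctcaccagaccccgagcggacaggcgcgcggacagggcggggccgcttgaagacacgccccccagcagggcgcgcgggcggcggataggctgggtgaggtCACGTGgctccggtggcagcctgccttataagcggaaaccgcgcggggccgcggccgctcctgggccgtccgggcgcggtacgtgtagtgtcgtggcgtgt

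Promoters were held for 5 of the 7 genes, the fifth being Lss, and not for Sqle and Fdps. All 5 held a CCAAT box on 1 of the strands, and so did 33.85% of the 32851 mouse promoters of the same length. The Hmgcs1 promoter held 3 of them. A GC box, GGGCGG on either strand, was also in all 5 and in 32.74% of all promoters. The sterol regulatory element-like letters were found only in Hmgcs1, from 137 to 129 bases before the start, against 1.053% of all promoters. Of 22 promoters held for 19 genes of cholesterol synthesis, with the 5 here among them, they were in 1. A sterol regulatory element with other letters would be missed by this search. The E-box was found only in Insig1, against 6.021%. The motifs did not overlap each other in these windows. A match is a match of letters, and none of these data measured binding.

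Levels between genes are given in FPKM (fragments counted per kilobase of gene, scaled between libraries). Per gene length, Hmgcs1 was the most abundant of the 7, with a mean of 45.0 FPKM over the 32 libraries. Cyp51 followed with 28.4 FPKM, Insig1 with 11.1, Sqle with 7.85, Idi1 with 2.98 and Lss with 1.45. Fdps stood at 0.0691 FPKM, with between 0 and 37 counts in a library. On the longest coding transcript of Fdps, 38 of 52 windows of 100 bases (73.08%) also lay in transcripts of 3 other genes: Gm3571, Gm5873 and Gm43738. Gm43738 overlaps Fdps by 7512 bases on the same strand. The Fdps count is therefore uncertain, since counting can withhold or divide reads that fit several genes, and its low level is not evidence of low expression. Of the Idi1 transcript, 23 of 118 such windows (19.49%) were shared with the pseudogene Gm13502, which had at most 16 counts in a library. The other 5 genes shared no window. Cyp51 overlaps Akap9 by 166 bases on the opposite strand, and whether the counting used strand is not given in the sources used here.

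The values below are CPM (counts scaled to a common library size, after TMM, edgeR's normalization for RNA composition), and fold changes are on the log2 scale of edgeR. A gene was called where the quasi-likelihood test of edgeR gave a p under 0.05 after Benjamini-Hochberg adjustment over all genes tested in that comparison. The level of all 7 genes together, the sum of their CPM, ranged from 578 to 773 in the Day 0 males and from 152 to 371 in the Day 5 males, with no overlap. In females it ranged from 423 to 514 at Day 0 and from 254 to 351 at Day 5, again with no overlap. These sums carry no test, and Hmgcs1 and Cyp51 make up most of them.

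**Figure D1:**
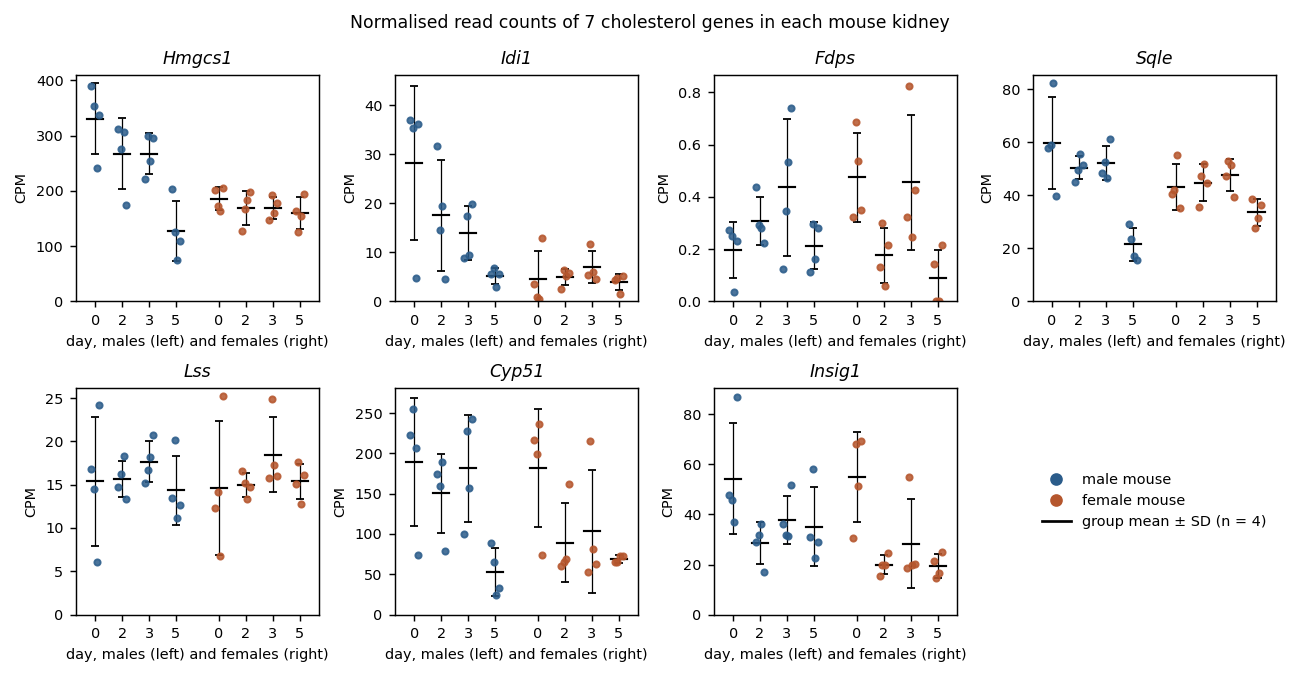
CPM (TMM-scaled, linear axes starting at 0) of the 7 genes in each of the 32 kidney libraries, by day, with males on the left and females on the right of each panel; points are mice, bars are the group mean ± SD (n = 4). The mean of the Day 5 males is the lowest of the 8 groups for Hmgcs1, Sqle and Cyp51, Idi1 lies higher in most Day 0 males than in any female, and 11 of the 12 females after Day 0 lie below every Day 0 female for Insig1.

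In male mice 4 of the 6 genes that passed the filter on low counts were lower at Day 5 than at Day 0: Hmgcs1, Idi1, Sqle and Cyp51. Insig1 and Lss did not pass the test, and Fdps had too few counts in males to be tested. Across all genes 19.2% were called in this comparison, and 10.2% were called lower. The median change of the 6 genes was -1.37, against 0.04 over all genes tested.

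Hmgcs1, the enzyme that makes HMG-CoA, stood at 391, 354, 242 and 338 CPM in the 4 Day 0 males and at 202, 125, 74.0 and 109 CPM in the 4 Day 5 males. The groups did not overlap, and the highest Day 5 mouse was the one with the lowest mitochondrial share of its group. The mean fell 2.49-fold in the fit (log2 fold change -1.31, SE 0.319, adjusted p = 0.0229). Sqle, a rate-limiting enzyme that adds oxygen to squalene, stood at 57.8, 58.9, 82.1 and 39.6 CPM at Day 0 and at 29.3, 23.6, 17.1 and 15.6 CPM at Day 5. Again no Day 5 mouse reached the lowest Day 0 mouse, and the fall was 2.68-fold (log2 fold change -1.42, SE 0.281, adjusted p = 0.0134). Among all genes tested 16.1% had every Day 5 male below every Day 0 male.

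Idi1, which interconverts the isoprenoid building blocks, had the largest fitted fall of the 7 genes in males. Its CPM was 36.9, 35.4, 4.74 and 36.1 at Day 0 and 5.48, 6.68, 2.90 and 5.48 at Day 5. Mouse 3 of Day 0 was already at the Day 5 level, so the groups overlapped, while the other 3 Day 0 mice lay at least 5 times higher than any Day 5 mouse. The fitted change was -2.38 (SE 0.561, adjusted p = 0.0211). Cyp51 stood at 223, 255, 206 and 73.6 CPM at Day 0 and at 89.2, 65.1, 24.3 and 32.9 CPM at Day 5. Here mouse 4 of Day 0 lay among the Day 5 mice, and the other 3 lay above them all. The fitted change was -1.79 (SE 0.483, adjusted p = 0.0320). Idi1 and Cyp51 also passed the study's additional threshold of a log fold change over 1.5, read here as log2, which 7.53% of all genes passed.

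Insig1 and Lss had other patterns in males. Insig1 stood at 47.6, 45.7, 37.0 and 86.8 CPM at Day 0 and at 30.9, 58.1, 22.6 and 28.9 CPM at Day 5, with a change of -0.56 (95% interval -1.32 to 0.20, adjusted p = 0.263). Lss, the cyclase that forms lanosterol, ranged from 6.09 to 24.2 CPM at Day 0 and from 11.1 to 20.2 CPM at Day 5. Its change was -0.03 (95% interval -0.86 to 0.80), an interval that still allows a fall of the size seen at Insig1.

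The count of 4 in males at Day 5 rested on several mice. It was 1 without male Day 0 mouse 1 or mouse 2, or without male Day 5 mouse 2, 3 or 4, and 3 without male Day 0 mouse 3. Sqle was called in all 8 of these fits, with adjusted p from 0.00458 to 0.0464, Hmgcs1 and Idi1 in 3 of 8 each, and Cyp51 in 2 of 8. All 4 changes stayed negative in all 8 fits. With mouse 1 as the only Day 5 male, an alternative chosen after the libraries were seen in which the lone mouse is assumed to vary like the Day 0 males, no gene of the whole table was called, and the changes were -0.63 for Hmgcs1, -0.94 for Sqle, -2.29 for Idi1 and -1.01 for Cyp51.

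The Day 5 males also differed from the Day 0 males in library makeup. The mitochondrial genome held 42.5, 78.9, 79.8 and 79.7% of counts in the 4 Day 5 males, against 6.46 to 24.0% in the Day 0 males. With the mitochondrial genes left out before normalization, the same 4 genes were called. The summed CPM of 8 proximal tubule markers was 757 to 5987 in the Day 5 males and 9547 to 12650 in the Day 0 males, and 2 of these 8 markers were called lower, with a list median of -1.88. Summed over 7 adipocyte markers the range was 664 to 3609 CPM at Day 5 and 337 to 1997 CPM at Day 0, and over 9 markers of the adrenal cortex, a tissue beside the kidney that makes steroids from cholesterol, 37.1 to 176 and 4.35 to 19.6 CPM. Collecting duct markers summed to 846 to 1591 CPM at Day 5 and 411 to 836 CPM at Day 0 (2 of 4 called higher), hepatocyte markers to 13.9 to 41.7 and 78.2 to 310.3 CPM (2 of 8 called lower), and the 4 injury markers described further on to 51.0 to 365 and 11.5 to 19.6 CPM (2 called higher). In the library labelled male Day 5 mouse 1, Xist, a transcript of the inactive X chromosome, had 4153 counts and the Y-linked genes 387, so that it held the marks of both sexes. The other 3 Day 5 males had 59 to 260 Xist and 447 to 545 Y-linked counts, and of the Day 0 libraries the males had up to 242 Xist and the females up to 221 Y-linked counts. The part of these differences in the falls was not tested.

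At Day 2 and Day 3 none of the 6 genes tested in males was called by edgeR. At Day 2, where 3.16% of all genes were called, 1 gene had an unadjusted p under 0.05, DESeq2 called 1 and limma voom 2. Insig1 came closest. Its CPM was 29.1, 31.9, 36.2 and 16.9 at Day 2, each below the lowest Day 0 male at 37.0, and its change was -0.92 (SE 0.310, adjusted p = 0.0995). Groups that did not overlap, with Day 2 lower, were found for 12% of all genes. At Day 3, where 24.5% of all genes were called, none of the 6 had an unadjusted p under 0.05, DESeq2 called 0 and limma voom 2. Hmgcs1 stood at 222, 298, 255 and 295 CPM at Day 3, with a change of -0.31 (95% interval -0.70 to 0.09). Cyp51 stood at 99.4, 228, 157 and 242 CPM, with a change of -0.06 (95% interval -0.96 to 0.84). The changes at Day 2 and Day 3 were -0.23 and -0.20 for Sqle, -0.67 and -1.02 for Idi1, and 0.04 and 0.20 for Lss. Without male Day 0 mouse 3 the count rose to 1 at Day 2 and to 2 at Day 3.

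In female mice the called change was that of Insig1 at Day 2. Its fitted change at Day 5, -1.51, was of like size but was not called. Insig1, whose product holds the SREBP precursor back, stood at 30.8, 68.3, 51.2 and 69.5 CPM in the Day 0 females and at 15.3, 19.7, 19.7 and 24.6 CPM in the Day 2 females. The groups did not overlap and the fall was 2.78-fold (log2 fold change -1.48, SE 0.282, adjusted p = 0.0355). It was 1 of 7 genes tested, where 1.93% of all genes were called and 1.16% were called lower. The call was lost without female Day 0 mouse 2 or any 1 of the 4 Day 2 females, with adjusted p from 0.00692 to 0.156 over the 8 fits, while the change stayed between -1.65 and -1.33. Without female Day 0 mouse 4 the count was 2. Female Day 0 mouse 2 held a summed CPM of 10653 for 8 hepatocyte markers, against 49.2 to 366 in the other 3 Day 0 females. Its Insig1 was close to that of mouse 4, and the part of the liver markers in the difference was not tested. Of 6 erythroid markers (hemoglobin and other red cell genes) 5 were called lower at Day 2, with summed CPM of 444 to 2692 in the Day 0 females and 34.9 to 113 in the Day 2 females, and of 7 adipocyte markers 2 were, with 552 to 1255 and 272 to 585 CPM. Leukocyte markers summed to 51.1 to 61.7 CPM in the Day 0 females and 23.2 to 33.9 CPM in the Day 2 females. For the 4 injury markers described further on the sums were 11.8 to 26.1 and 99.8 to 480 CPM. The part of these markers in the Insig1 difference was not tested.

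Insig1 was also lower in point estimate at the later days in females. Its CPM was 18.7, 54.8, 19.8 and 20.1 at Day 3, where mouse 2 lay within the Day 0 range and the other 3 below it, with a change of -0.97 (adjusted p = 0.143). At Day 5 it was 21.3, 14.6, 16.5 and 25.05, below every Day 0 female, with a change of -1.51 (SE 0.290, adjusted p = 0.0701). Cyp51 had a like course. From 217, 199, 236 and 73.9 CPM at Day 0 it went to 59.7, 64.9, 68.7 and 162 at Day 2, to 53.2, 216, 80.7 and 63.1 at Day 3 and to 64.9, 65.2, 72.6 and 73.0 at Day 5. All 4 Day 5 females lay just below the lowest Day 0 female, and the change at Day 5 was -1.39 (SE 0.324, adjusted p = 0.120). Among all genes tested 3.63% had every Day 5 female below every Day 0 female.

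Counted over the list, none of the 7 genes was called by edgeR in females at Day 3 or Day 5. At Day 3, where 5.54% of all genes were called, 1 gene had an unadjusted p under 0.05, DESeq2 called 0 and limma voom 3. At Day 5, where 0.258% of all genes were called, 2 genes had an unadjusted p under 0.05, and DESeq2 and limma voom called 2 each. The count was 2 at Day 5 without female Day 0 mouse 4, and 1 at Day 3 without that mouse or without female Day 3 mouse 2. With Day 3 mice 3 and 4, which held high adrenal cortex markers, left out after the libraries were seen, the Day 3 count was again 0, and the change of Insig1 was -0.55.

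Hmgcs1 and Sqle differed little between days in females. Hmgcs1 stood at 202, 173, 164 and 206 CPM at Day 0, at 127, 168, 183 and 198 at Day 2, at 147, 192, 161 and 177 at Day 3 and at 164, 125, 154 and 195 at Day 5. Its change from Day 0 was -0.15 at Day 2, -0.15 at Day 3 and -0.23 at Day 5. The 95% interval at Day 5 was -0.70 to 0.25, against -2.03 to -0.60 in males, and the difference between the sexes is tested further on. For Sqle the values were 40.3, 42.0, 55.3 and 35.2 CPM at Day 0 and 38.7, 27.6, 31.5 and 36.5 at Day 5, with a change of -0.36 (95% interval -0.81 to 0.09). Idi1 was low and scattered in females, at 3.47, 0.935, 0.392 and 13.0 CPM at Day 0 and between 1.41 and 5.06 CPM at Day 5. Its 95% interval at Day 5, -2.19 to 1.75, leaves the direction undetermined. Lss ranged from 6.71 to 25.2 CPM at Day 0 and from 12.8 to 17.6 CPM at Day 5, with a change of 0.07. Fdps had 10, 25, 11 and 13 counts in the Day 0 females and 4, 0, 0 and 5 at Day 5. A count of 0 is compatible with up to 3 counts in a library, and the fitted changes of this gene are as uncertain as its counting. Every Day 2 female lay below every Day 0 female for Insig1 and Fdps, as for 6.64% of all genes.

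The Day 5 females were the only group in which all 4 libraries held high adrenal cortex markers. The summed CPM of the 9 markers was 556 to 1488 there, 1822 and 2284 in female Day 3 mice 3 and 4, 520 in male Day 2 mouse 2 and 351 in female Day 0 mouse 2, and 87.1 or less in the other libraries of Day 0 to Day 3. The adrenal cortex itself makes cholesterol, and its part in the female values at Day 5 was not tested. The mitochondrial share in the Day 5 females was 31.6, 77.9, 22.2 and 9.30%.

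**Figure D2:**
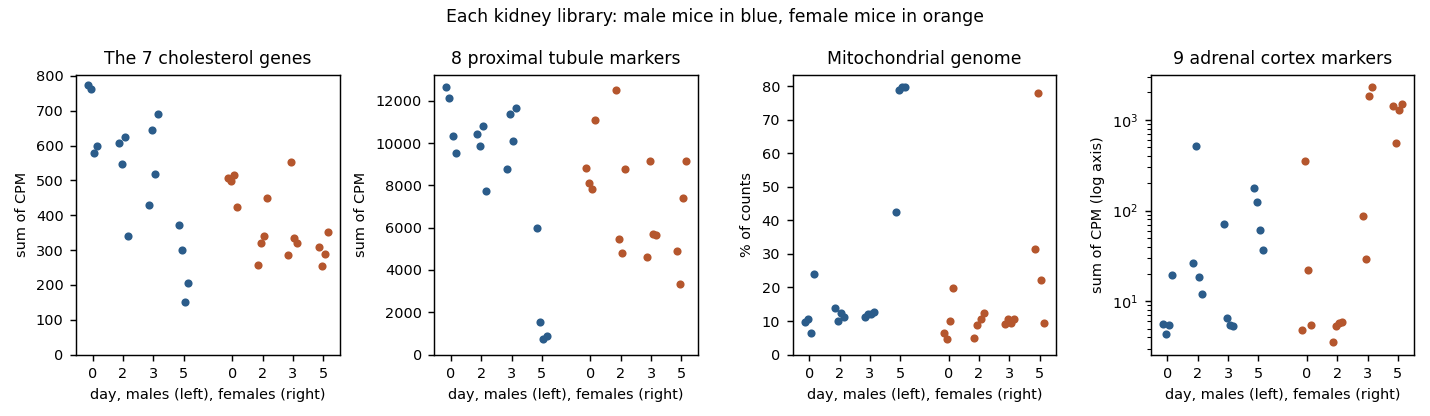
Summed CPM of the 7 cholesterol genes, summed CPM of 8 proximal tubule markers, share of counts on the mitochondrial genome (%) and summed CPM of 9 adrenal cortex markers (log axis) in each library, by day, males in blue and females in orange. The Day 5 males are low in the first 2 panels and hold 42.5% or more mitochondrial counts; 3 of the 4 Day 5 females are below 35%, and all 4 hold 556 CPM or more of adrenal cortex markers.

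No gene tested of the 7 was called between Day 3 and Day 2 by edgeR, in a comparison that shares no Day 0 mice. In males 0% of all genes were called, 0 of the 6 genes tested had an unadjusted p under 0.05, and DESeq2 and limma voom called 0 of them. In females 0% of all genes were called, 1 of 7 genes (Fdps) had an unadjusted p under 0.05, and DESeq2 and limma voom called 0. Hmgcs1 held its level closely over this step, with a change of -0.01 in males (95% interval -0.43 to 0.41) and 0.00 in females (95% interval -0.38 to 0.38).

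**Figure D3:**
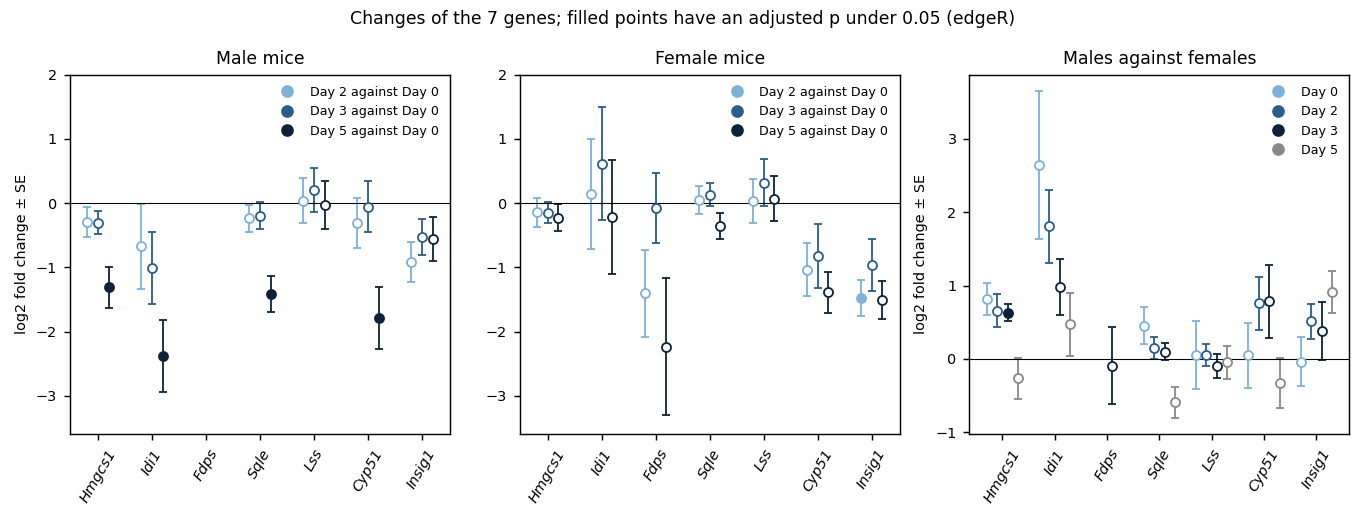
Fitted log2 fold changes ± SE of the 7 genes at Day 2, Day 3 and Day 5 against Day 0 in males (left) and females (middle), and of males against females at each day (right); filled points have an adjusted p under 0.05 in edgeR, and Fdps has no point where it had too few counts to be tested. Filled points are Hmgcs1, Idi1, Sqle and Cyp51 at Day 5 in males, Insig1 at Day 2 in females, and Hmgcs1 between the sexes at Day 3.

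Between the sexes Hmgcs1 was higher in males at Day 3, with 222 to 298 CPM in males and 147 to 192 CPM in females and no overlap. The difference was 0.63 (SE 0.119, adjusted p = 0.00670). It was the 1 gene of 7 called at that day, where 21.3% of all genes were called and 10.6% were called higher in males, and where 14.8% of all genes did not overlap with males higher. The call held in all 8 fits that left out a mouse and was lost in a fit over all 8 groups, with an adjusted p of 0.221. Without female Day 3 mouse 2 the count was 4. With female Day 3 mice 3 and 4 left out together the difference of Hmgcs1 was 0.63 with an adjusted p of 0.0676. Cell type markers differed at the same day: 4 of 8 proximal tubule markers were called higher in males (sums of 8779 to 11683 CPM, against 4637 to 9148 in females), and 4 of 4 collecting duct and 5 of 7 adipocyte markers were called lower (472 to 604 against 652 to 808 CPM, and 183 to 247 against 349 to 620 CPM). Their part in the Hmgcs1 difference was not tested.

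Hmgcs1 had the same direction before and soon after cisplatin. At Day 0 the males stood at 242 to 391 CPM and the females at 164 to 206 CPM, with no overlap, a difference of 0.82 (SE 0.213) and an adjusted p of 0.219. Males were higher without overlap for 3.43% of all genes at Day 0. At Day 2 the difference was 0.65 (SE 0.225, adjusted p = 0.205), and at Day 5 it was -0.26 (SE 0.281, adjusted p = 0.623), with males at 74.0 to 202 CPM and females at 125 to 195 CPM. Idi1 showed larger differences with more scatter. Of the 4 Day 0 males 3 stood at 35.4 to 36.9 CPM, above the highest Day 0 female at 13.0 CPM, and the fourth at 4.74 CPM within the female range. The difference was 2.64 (SE 1.01, adjusted p = 0.505) at Day 0, 1.81 (SE 0.501, adjusted p = 0.113) at Day 2, 0.97 (SE 0.380, adjusted p = 0.104) at Day 3 and 0.48 (SE 0.428, adjusted p = 0.554) at Day 5. The point estimate was smaller at each later day.

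No other gene tested of the 7 was called between the sexes by edgeR. From Day 0 to Day 5 the differences were 0.45, 0.15, 0.10 and -0.59 for Sqle, 0.05, 0.76, 0.79 and -0.33 for Cyp51, and -0.04, 0.52, 0.38 and 0.91 for Insig1, and those of Lss lay between -0.09 and 0.06. At Day 0, where 0.449% of all genes were called, 2 of 6 genes had an unadjusted p under 0.05, DESeq2 called 1 and limma voom 3. At Day 2, with 1.47% of all genes called, 2 of 6 had an unadjusted p under 0.05, DESeq2 called 1 and limma voom 4, and 2 were called by edgeR without male Day 2 mouse 4. At Day 5, with 0.276% of all genes called, 2 of 6 had an unadjusted p under 0.05, DESeq2 called 0 and limma voom 2, and 2 were called by edgeR without the library labelled male Day 5 mouse 1.

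Whether the change from Day 0 itself differed between the sexes was tested as an interaction. No gene tested was called by edgeR at Day 2 (0% of all genes called, 1 of 7 with an unadjusted p under 0.05), at Day 3 (0.0114% of all genes, 0 of 7) or at Day 5 (0.243% of all genes, 2 of 6). DESeq2 called 0 at each day, and limma voom called 0, 0 and 3. At Day 5 the change in males minus that in females was -1.11 for Hmgcs1 (SE 0.379, adjusted p = 0.181), -1.07 for Sqle (SE 0.340, adjusted p = 0.153) and 0.92 for Insig1 (SE 0.467, adjusted p = 0.366). The calls in males at Day 5 are thus not shown to be absent in females. The comparisons of the days with Day 0 share the Day 0 mice, and those between the sexes share mice with both.

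In some kidneys most of the 7 genes stood high or low together. Counted over the 6 genes other than Fdps, female Day 3 mouse 2 was the highest of its group for 6 of 6. Male Day 3 mouse 4 was the highest for 5, and male Day 2 mouse 4 and male Day 5 mouse 3 were the lowest for 5. Female Day 2 mouse 1 was the lowest for 5 and male Day 3 mouse 1 and female Day 3 mouse 1 for 4 each. Male Day 2 mouse 3, female Day 0 mouse 4 and female Day 5 mouse 4 were the highest for 4, and male Day 0 mouse 3 was the lowest for 4. Of these, female Day 0 mouse 4 was also the lowest of its group for 2 genes, and male Day 0 mouse 3 and female Day 2 mouse 1 were the highest for 1 each. Their values can be set beside the summed CPM of 4 injury markers: Havcr1 and Lcn2, known markers of tubular injury, Krt20 and Cdkn1a. Female Day 3 mouse 2 had an injury sum of 41.0 CPM, against 411 to 701 in the other 3 Day 3 females, and a proximal tubule sum of 9148 CPM, against 4637 to 5692. Male Day 2 mouse 4 had an injury sum of 369 CPM, against 16.6 to 101 in the other 3. For male Day 5 mouse 3 the injury sum was 365 CPM, against 51.0 to 116.

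Male Day 3 mouse 1 had 242 CPM of injury markers, against 64.1 to 125, and male Day 3 mouse 4 had the lowest sum of its group. Female Day 3 mouse 1 had the highest, at 701 CPM. In these 6 of the 11 kidneys the cholesterol genes were low where the injury sum was the highest of its group, or high where it was the lowest. In the other 5 it was neither. Female Day 2 mouse 1 had an injury sum of 302 CPM within the range of its group (99.8 to 480) and the highest proximal tubule sum of its group, 12511 CPM. These mice were singled out after their values were seen, and the relation was not tested.

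Within groups the closest pair of the 7 genes by Pearson correlation was Idi1 and Lss. Their log2 CPM correlated at 0.78 over the 32 libraries after the group means were taken out. By rank (Spearman) the closest pair was Hmgcs1 and Idi1, at 0.72, with Idi1 and Lss at 0.69. The values that follow are Pearson correlations unless named otherwise. For Sqle and Cyp51 it was 0.62, for Hmgcs1 and Idi1 0.60, for Lss and Insig1 0.60, for Insig1 and Fdps 0.56 and for Hmgcs1 and Cyp51 0.55. Other pairs went the opposite way, with -0.43 for Sqle and Lss, -0.26 for Sqle and Idi1 and -0.11 for Lss and Cyp51, although by rank (Spearman) these were -0.07, -0.04 and 0.19. These are descriptions over libraries that share depth and RNA makeup within a kidney. The genes whose level over the 32 libraries was most like the mean of the 7 were Tcaim, Pcca, Ccser2, Dlat, Slc25a21, Caprin1, Ide, Tex2, Osbpl8 and Arhgap42, with Pearson correlations from 0.84 to 0.88 (Tcaim). The most alike of the other pathway genes was Acss2, an acetyl-CoA synthetase, at rank 26 of 18213 genes, followed by Nsdhl at rank 73 and Sc5d at rank 205.

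The rest of the pathway was described by 78 genes in 7 lists. In males 3 of 72 tested were called at Day 2 (1 higher and 2 lower), 24 of 73 at Day 3 (8 higher and 16 lower) and 19 of 72 at Day 5 (2 higher and 17 lower). In females the counts were 2 of 74 at Day 2 and 2 of 74 at Day 5, all lower, and 4 of 74 at Day 3, of which 2 were lower. These counts are to be read against the shares of all genes called in the same comparisons, 3.16%, 24.5% and 19.2% in males and 1.93%, 5.54% and 0.258% in females at Day 2, Day 3 and Day 5. Leaving out 1 mouse moved the counts to between 0 and 17, 3 and 33 and 8 and 28 in males, and 1 and 25, 0 and 30 and 0 and 20 in females. With mouse 1 as the only Day 5 male, or mice 1 and 2 as the only Day 3 females, the counts at those days were 0, and edgeR then called no gene of the whole table.

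Among the mevalonate genes the decarboxylase Mvd was called most often. It stood at 67.5 to 120 CPM in the Day 0 males, at 44.4 to 49.2 at Day 2, at 40.9 to 58.2 at Day 3 and at 14.5 to 26.6 at Day 5, each day below every Day 0 male, as for 12%, 17.4% and 16.1% of all genes. Its changes were -0.95 (SE 0.180, adjusted p = 0.0387), -0.88 (SE 0.194, adjusted p = 0.0185) and -2.16 (SE 0.270, adjusted p = 0.00447). In females Mvd fell at Day 3, with a change of -1.23 (adjusted p = 0.0467). With 1 mouse left out Mvd was called in 2, 5 and 8 of 8 fits at Day 2, Day 3 and Day 5 in males, and in 2 of 8 at Day 3 in females (adjusted p up to 0.168). With mice 1 and 2 as the only Day 3 females it was -1.03 (adjusted p = 0.428). Also lower in males were Mvk at Day 3 (-0.74) and Day 5 (-0.62), Pmvk at Day 3 (-0.94) and Acat2 at Day 5 (-1.07). Ggps1, which leads to a side branch, rose by 0.31 at Day 3. Leaving out 1 mouse kept the Day 3 calls in 5 of 8 fits for Mvk, 4 of 8 for Pmvk and 2 of 8 for Ggps1. Acat2 at Day 5 was kept in 7 of 8, and Mvk at Day 5 was called in 6 of 9 alternative fits of other kinds. In the list of 7 mevalonate genes, 6 were tested in males, and the medians at Day 2, Day 3 and Day 5 were -0.32, -0.50 and -0.34, against 0.03, 0.02 and 0.04 over all genes.

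Of the 10 sterol genes after squalene synthase and including it, Msmo1, a sterol methyl oxidase that acts later than Cyp51, fell in 4 of the 6 comparisons with Day 0. In males it stood at 33.7 to 38.8 CPM at Day 0, at 15.9 to 18.1 at Day 2, at 13.2 to 24.6 at Day 3 and at 17.2 to 20.5 at Day 5. The changes in males were -1.06, -1.10 and -0.85, with adjusted p from 0.0102 to 0.0119, and in females -1.28 at Day 2 (adjusted p = 0.0419). The call in females was kept in 2 of 8 fits with 1 mouse left out, and those in males in 5, 8 and 8 of 8. At each of these days all 4 males lay below every Day 0 male, as for the shares of all genes given for Mvd. Also lower in males were Nsdhl at Day 3 (-0.68) and Day 5 (-1.30), Fdft1 (-0.70) and Sc5d (-0.73) at Day 3, and Ebp at Day 5 (-1.30). Erythroid markers also had lower sums at Day 2 and Day 3 in males, with 482.7 or more summed CPM in the Day 0 males against 221 or less at Day 2, where no marker was called by edgeR, and 33.5 or less at Day 3, where 5 of 6 were called lower, and 4 of 7 adipocyte markers were called lower at Day 3. At Day 5 in males 1 of 6 erythroid markers was called higher, and the part of these markers in the values of Msmo1 was not tested. The list medians in males were -0.44, -0.56 and -0.75 at Day 2, Day 3 and Day 5.

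**Figure D4:**
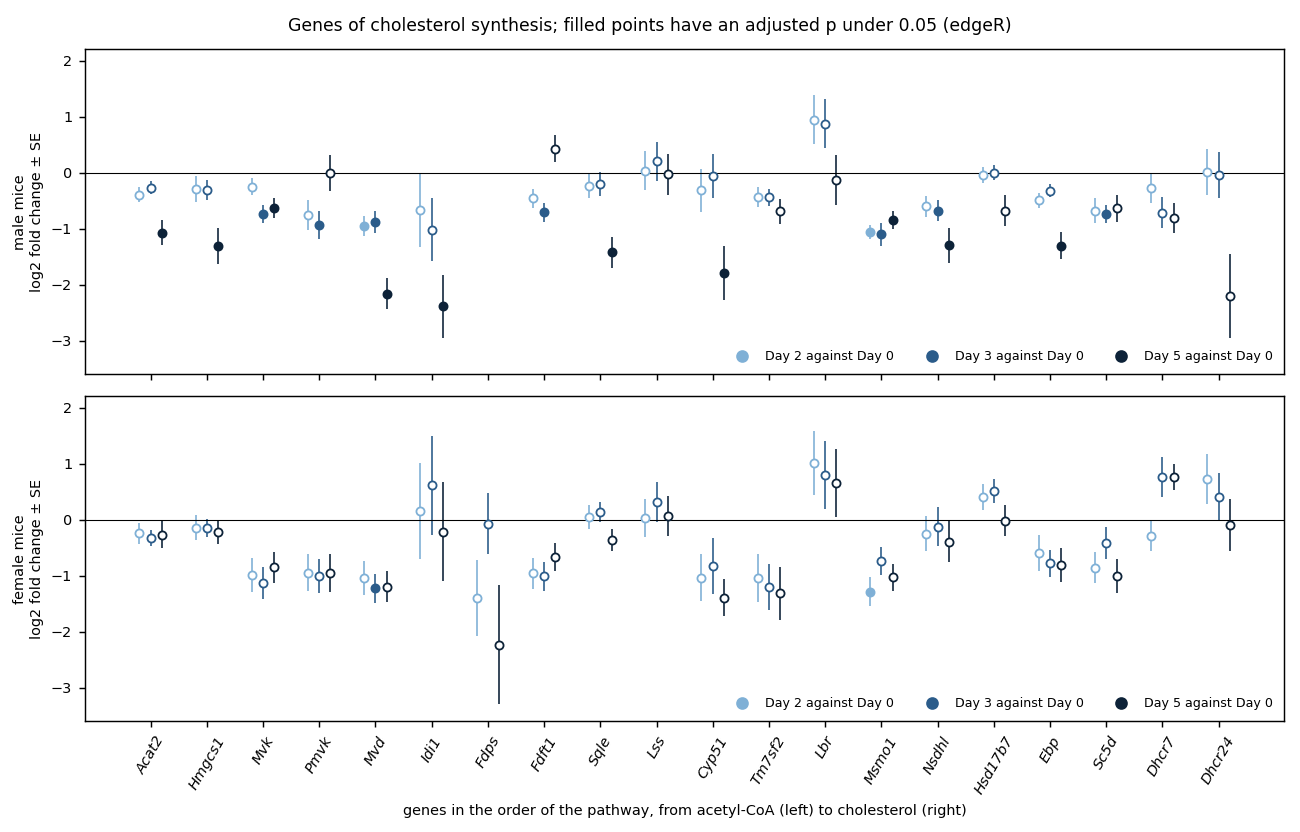
Fitted log2 fold changes ± SE of cholesterol synthesis genes in the order of the pathway, from acetyl-CoA (left) to cholesterol (right), at Day 2, Day 3 and Day 5 against Day 0, in males (top) and females (bottom); filled points have an adjusted p under 0.05 in edgeR. In males the filled points of these genes are below 0, with Mvd at -2.16 and Idi1 at -2.38 lowest at Day 5; in females Msmo1 at Day 2 and Mvd at Day 3 are filled.

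Among the 14 control genes 6 were called in males at Day 5, all lower, where 10.2% of all genes were called lower, and 14 of 14 point estimates were below 0 (median -0.49). They included Srebf2 (-0.59, adjusted p = 0.0483), Scap (-0.83, adjusted p = 0.0326) and Erlin1 (-1.41), which encodes a protein of the endoplasmic reticulum. With 1 mouse left out Srebf2 was called in 2 of 8 fits (adjusted p from 0.0419 to 0.135), and Scap and Erlin1 in 3 of 8 each. At Day 3 in males Nr1h2 and Nr1h3, the liver X receptors that sense oxysterols, were lower, at -0.45 and -0.40. Their calls were kept in 3 of 8 and 2 of 8 fits with 1 mouse left out. In females Rnf145, a ubiquitin ligase, was higher by 0.90 at Day 3. With mice 1 and 2 as the only Day 3 females it was higher by 1.01 and was not called (adjusted p = 0.428).

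Of the 18 uptake and transport genes 17 were tested in males. At Day 3, where 11.4% of all genes were called higher and 13.1% lower, 4 rose and 1 fell, with Mylip, a ubiquitin ligase, up by 1.28 and Npc2, a lysosomal cholesterol carrier, down at -0.86. At Day 5, where 8.98% of all genes were called higher and 10.2% lower, 1 rose, the HDL receptor Scarb1 (1.29, adjusted p = 0.0148), and 3 fell, among them Lipa, the lysosomal lipase that frees cholesterol (-1.99), and Lrpap1 (-1.76). Gramd1b, which moves cholesterol from the plasma membrane inward, rose in males by 0.93 at Day 2 and 0.89 at Day 3 and in females by 0.96 at Day 3. With 1 mouse left out, its calls in males were kept in 2 of 8 fits at Day 2 and 7 of 8 at Day 3. Mylip kept its call in 2 of 8, Npc2 in 4 of 8, and Lipa and Lrpap1 in 3 of 8 each. With mice 1 and 2 as the only Day 3 females Gramd1b was 0.95 (adjusted p = 0.428). Of the efflux and storage genes Abcg1, a cholesterol exporter, rose by 1.64 at Day 5 in males (SE 0.272, adjusted p = 0.00872). It stood at 5.32 to 6.55 CPM in the Day 0 males and at 12.6 to 24.1 CPM in the Day 5 males. Abca1 rose by 1.65 at Day 3 in males, when 2 of the 8 tested were called higher and 1 lower, Apoe (-0.81, adjusted p = 0.0494). The calls of Abca1 and Apoe were kept in 2 of 8 fits each with 1 mouse left out (adjusted p up to 0.0794 and 0.129). That of Abcg1 at Day 5 was kept in 8 of 8. Adipocyte and leukocyte markers were also higher in the Day 5 males in 7 of 7 and 7 of 9 point estimates, and their part in the Abcg1 rise was not tested.

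Fatty acid synthesis is chiefly under SREBP-1. In males at Day 3, 5 of its 13 genes were called, all lower, where 24.5% of all genes were called and 13.1% were lower, among them Thrsp (-3.87), Scd1 (-3.10) and Fasn (-2.89), and at Day 5 Acss2 was the 1 called (-1.42, adjusted p = 0.0191), with a list median of 0.42. Of 7 adipocyte markers, none of them in this list, 7 were below 0 in point estimate at Day 3, where 4 were called lower, and 7 were above 0 at Day 5, where 8 of the 13 fatty acid genes were. Their part in these values was not tested. In females Thrsp fell at Day 2 (-3.17) and Day 5 (-2.33), and Elovl6 at Day 5 (-1.62). Both Day 5 calls could be lost with 1 mouse left out, where the count of pathway genes called fell as low as 0. Of the 6 oxysterol enzyme genes 5 were tested in males: Ch25h, cholesterol 25-hydroxylase, rose by 1.18 at Day 3 and Cyp7b1 fell at Day 5 (-4.39).

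Between the sexes 16 of 73 of these pathway genes were called at Day 3, 7 of them higher in males, where 21.3% of all genes were called, 3 of 73 at Day 2 (1.47% of all genes) and 1 of 73 at Day 5 (0.276% of all genes). With 1 mouse left out these counts ranged from 9 to 24, 1 to 5 and 0 to 26. Cyp7b1, an oxysterol hydroxylase, had the largest of the called differences. It stood at 67.5 to 188 CPM in the Day 2 males against 1.79 to 2.23 CPM in the Day 2 females, a difference of 6.16 (SE 0.342, adjusted p = 9.43e-06), and it was higher in males by 5.78 at Day 3. Both calls of Cyp7b1 were kept in all 8 fits with 1 mouse left out. Lower in males at Day 3 were Scd1 (-2.19), Elovl6 (-1.71) and Apoe (-1.10). Lbr, which carries a sterol reductase activity, was higher in males by 0.85 at Day 2 and 0.98 at Day 3. Acat2, which joins acetyl-CoA units, was higher by 0.36 and Pmvk lower (-0.36) at Day 3. Dhcr7, the enzyme of the last step in the Kandutsch-Russell branch, was lower in males at Day 5 (-1.22, adjusted p = 0.0386). With 1 mouse left out Lbr at Day 2 and Dhcr7 at Day 5 were called in 2 of 8 fits each, Acat2 in 4 of 8 and Scd1 in 5 of 8.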

How the data were processed

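Whole-kidney RNA from 32 C57BL/6 mice (8 groups of 4) was sequenced as paired-end 150 bp reads on an Illumina instrument. The authors aligned the reads to the mouse genome and deposited raw read counts per gene and FPKM values. The FPKM values do not equal the deposited counts divided by gene length and library total, and were used as deposited. The study's methods name GRCm38, which matches the gene coordinates in the files, while the submitters' processing notes list GRCm39 and mm39 beside HTSeq and DESeq2. The aligner is not given in the sources used here.

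The deposited counts were tested with edgeR (4.0.16, R 4.3.3): TMM, filterByExpr over the groups compared, robust dispersion and quasi-likelihood fit, Benjamini-Hochberg adjustment over all genes, adjusted p under 0.05. The study used DESeq2 with a log fold change over 1.5 (base not stated, read here as log2), tried here as alternatives with DESeq2 1.42.0 and limma 3.58.1. FPKM was used only for levels between genes. The members and gene lists were chosen with earlier results of these data known. Genes were named by a rule: the 7 members, the 3 genes with the largest rise and fall per list and comparison among those with adjusted p under 0.05 (some are left out), and the 10 genes most alike over 32 libraries (log2 CPM, prior count 2); any other gene is named as chosen after its values were seen. Standard errors are the log2 fold change over the root of the test's F, and 95% intervals use the t quantile at the fitted degrees of freedom. The edgeR step was tested on simulated data with 200 changed genes. Library totals ran from 16502107 to 35961325 counts, and no 2 libraries were identical. Intervals and floors (3 counts) cover counting error only where a count of 0 is given; others rest on the spread between mice. Some genes of the lists are not reported here.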

Additional observations from a re-analysis of the deposited data

Results flagged for a closer look

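In 56 groups of 4 mice (7 genes in 8 groups), 5 held a mouse whose gap to the nearest other mouse was above Dixon's 95% critical value of the group's range in CPM, which chance alone exceeds in about 1 in 20 groups. In the Day 0 males Idi1 was 4.74 CPM in mouse 3, against 35.4 to 36.9 in the others. Cyp51 in the Day 2 females was 162 CPM in mouse 4, against 59.7 to 68.7. Female Day 3 mouse 2 accounted for the other 3, each time as the highest: Cyp51 was 216 CPM (others 53.2 to 80.7), Insig1 54.8 CPM (18.7 to 20.1) and Lss 24.9 CPM (15.8 to 17.2). That mouse also had the lowest injury marker sum of its group, 41.0 CPM, and female Day 2 mouse 4 the lowest of its own, 99.8 CPM. Male Day 0 mouse 3 had an injury sum of 13.1 CPM, within the range of the Day 0 males (11.5 to 19.6), and its mitochondrial share was the lowest of its group, 6.46%. The part of these values in the differences was not tested.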

How the results depend on the processing

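Few counts limit Fdps, with 37 or fewer in every library, and sequence shared with other genes makes its counting uncertain. Few counts also limit Idi1 where it was low, with 8 counts in a Day 0 female and 18 to 98 in the Day 5 males. Of 808 changes of the 7 genes computed under alternatives other than leaving out 1 mouse, 736 kept their direction and their side of the threshold, 42 became called, 7 lost a call and 23 changed sign. Hmgcs1, Sqle, Idi1 and Cyp51 at Day 5 in males were called in all 8 other fits that kept every mouse, and Insig1 at Day 2 in females and Hmgcs1 between the sexes at Day 3 in 7 of those 8. The cause of the changes below was not tested.

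The count of the 7 genes called moved as follows. With limma voom it was 2 for Day 2 and 2 for Day 3 in males, 4, 3 and 2 for Day 2, Day 3 and Day 5 in females, 3, 4, 4 and 2 between the sexes in the order of the days from Day 0 to Day 5, and 3 for the interaction at Day 5. With DESeq2 it was 1 for Day 2 in males, 2 for Day 5 in females, and 1, 1 and 2 between the sexes at Day 0, Day 2 and Day 3. In a fit over all 8 groups it was 1 for Day 3 and 1 for Day 5 in females, 2, 0 and 1 between the sexes at Day 0, Day 3 and Day 5, and 2 for the interaction at Day 5. With no filter on low counts it was 2 for Day 5 in females. With a log2 fold change over 1.5 also required it was 2 for Day 5 in males, 0 for Day 2 in females and 0 between the sexes at Day 3. In settings chosen after seeing the data, it was 0 for Day 5 in males with mouse 1 as the only Day 5 male, and 0 between the sexes at Day 3 with mice 1 and 2 as the only Day 3 females.

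The mice carry the same numbers in every group, and no pairing by number ran through a whole comparison. Of 48 correlations of same-numbered mice (-0.415 to 0.481) 10 were over 0.1, and in 0 of 12 comparisons was every one. Between the sexes at Day 0 they were 0.272, -0.0737, 0.444 and 0.481 for mice 1, 2, 3 and 4. With the mouse number as a replicate block the count was 0 for Day 2 in females, where Insig1 had an adjusted p of 0.0507, and the block changed sign for Lss at Day 5 in males (0.076), Idi1 at Day 5 in females (0.74), Hmgcs1 between Day 3 and Day 2 in males (0.021) and Lss in the interaction at Day 2 (0.017). It changed no other call of the 7 genes.

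Log2 fold changes that changed sign, none of them called in the edgeR fits reported, were these. With limma voom they were Lss at Day 5 in males (0.17), Idi1 at Day 5 in females (0.84), Cyp51 (-0.057), Hmgcs1 (-0.15) and Sqle (-0.013) between Day 3 and Day 2 in females, and between the sexes Insig1 at Day 0 (0.11), Fdps (0.47) and Lss (0.018) at Day 3 and Lss at Day 5 (0.23). With the DESeq2 size factors and with DESeq2 they were Hmgcs1 between Day 3 and Day 2 in females (-0.0052 and -0.0092) and Lss in the interaction at Day 2 (0.0055 and 0.0037). Lss in that interaction was also 0.0067 with at least 10 counts in every library and 0.017 without mitochondrial genes. In the settings chosen after seeing the data they were Fdps at Day 3 in females (0.30), Cyp51 (0.40) and Hmgcs1 (0.38) between the sexes at Day 5 and Cyp51 in the interaction at Day 5 (0.35).

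Leaving out 1 mouse at a time moved the count to between 0 and 1 for Day 2, 0 and 2 for Day 3 and 1 and 4 for Day 5 in males, 0 and 2 for Day 2, 0 and 1 for Day 3 and 0 and 2 for Day 5 in females, 0 and 2 between the sexes at Day 2, 1 and 4 at Day 3 and 0 and 2 at Day 5, and 0 and 2 for the interaction at Day 5. It stayed 0 in the other 5 comparisons. Signs changed in these ranges. In males they were Lss at Day 2 (-0.25 to 0.35), Cyp51 (-0.32 to 0.15), Lss (-0.065 to 0.51) and Sqle (-0.35 to 0.0032) at Day 3, Lss at Day 5 (-0.30 to 0.26), and Hmgcs1 (-0.17 to 0.076), Idi1 (-0.67 to 0.11) and Sqle (-0.037 to 0.10) between Day 3 and Day 2. In females they were Idi1 (-0.21 to 1.61), Lss (-0.19 to 0.43) and Sqle (-0.034 to 0.21) at Day 2, Fdps at Day 3 (-0.52 to 0.17), Idi1 (-0.60 to 1.26) and Lss (-0.17 to 0.47) at Day 5, and Cyp51 (-0.43 to 0.68), Hmgcs1 (-0.11 to 0.081), Insig1 (-0.019 to 0.67) and Sqle (-0.0035 to 0.17) between Day 3 and Day 2. Between the sexes they were Cyp51 (-0.21 to 0.32), Insig1 (-0.35 to 0.10) and Lss (-0.24 to 0.46) at Day 0, Lss at Day 2 (-0.033 to 0.13), Fdps (-0.46 to 0.39) and Lss (-0.18 to 0.091) at Day 3 and Lss at Day 5 (-0.25 to 0.047). In the interaction they were Lss at Day 2 (-0.42 to 0.28), Day 3 (-0.54 to 0.15) and Day 5 (-0.53 to 0.17).

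The counts of the 78 other pathway genes depended more on the test. With limma voom they were 33, 41 and 52 in males at Day 2, Day 3 and Day 5, against 3, 24 and 19 by edgeR, and 46, 41 and 26 in females, against 2, 4 and 2. DESeq2 gave 16 for Day 2 in males and 15, 21 and 9 in females. The fit over all 8 groups gave 11 and 34 at Day 2 and Day 5 in males and 23, 24 and 19 in females. With the replicate block the counts were 0 and 2 in males at Day 2 and Day 3 and 0 and 1 in females at Day 3 and Day 5. With a log2 fold change over 1.5 also required they were 0, 5 and 7 in males. With no filter on low counts they were 14 in males at Day 3 and 7 and 6 in females at Day 2 and Day 5, and with at least 10 counts in every library 5 in males at Day 2 and 6 and 7 in females at Day 2 and Day 3. Between the sexes limma voom gave 23, 20, 28 and 38 from Day 0 to Day 5, against 0, 3, 16 and 1 by edgeR. In the same comparisons the fit over all 8 groups gave 6, 1, 3 and 17. DESeq2 gave 6, 6 and 12 between the sexes at Day 0, Day 2 and Day 5, and the replicate block 3, 1 and 0. With mice 1 and 2 as the only Day 3 females the Day 3 count between the sexes was 6. For single pathway genes called by edgeR, 504 values kept the call and 127 lost it under these alternatives, and 335 kept it and 257 lost it with 1 mouse left out. Among those that lost it with the replicate block were Srebf2 and Scap at Day 5 and Msmo1 and Mvd at Day 2 and Day 3 in males.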
